A study of Mus musculus with 3 samples.

Results

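The 10 genes described here are 4 ligands and 6 receptor-side genes of the fibroblast growth factor (FGF) system: Fgf2, Fgf7, Fgf18, Fgf23, the kinase receptors Fgfr1 to Fgfr4, the receptor-like gene Fgfrl1, and Kl, which encodes Klotho. They were picked by name, with earlier results of these data known, and all 10 were among the 25410 gene symbols of the files. The RNA came from 3 cultures of IDG-SW3, a mouse bone cell line that passes from a late osteoblast to an osteocyte-like state in culture. It is a single line from the bone of mice that carry an interferon-inducible, temperature-sensitive T antigen and a green fluorescent reporter driven by a Dmp1 promoter, so its libraries describe 1 cell line and not several animals. Cells were expanded at 33 °C with interferon-gamma, plated at 40000 cells/cm2, moved to 37 °C in osteogenic medium without interferon-gamma, and kept to day 35. All 3 cultures received 100 nM parathyroid hormone (PTH) for 24 h. They form 1 group of 3 biological replicates; vehicle cultures were not analysed here, so no effect of PTH was measured on any gene. The comparisons that these libraries allow are between ligands and receptors, between each gene and a fixed level, and among the libraries.

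FGFs are secreted proteins that signal through receptor tyrosine kinases on the cell surface. Most act near their source and need heparan sulfate to hold ligand and receptor together, while Fgf23 is a hormone of osteocytes and osteoblasts that acts on the kidney, where Klotho serves as its coreceptor and phosphate reabsorption and vitamin D activation are lowered. The third immunoglobulin loop of Fgfr1, Fgfr2 and Fgfr3 is spliced in alternative forms, IIIb and IIIc, and this choice sets which ligands bind. Fgf7, also called keratinocyte growth factor, is made by mesenchymal cells and binds the IIIb form of Fgfr2. Active receptors work through the adaptor Frs2 and the Ras to ERK kinase cascade, which induces its own inhibitors of the Sprouty, Spred and Dusp families. PTH acts on osteoblasts and osteocytes through a receptor that raises cyclic AMP.

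The IIIb exon of Fgfr2 is shown because it marks the form of the receptor that binds Fgf7, the highest ligand of these cells. It was read on build GRCm38 from the transcript of the GENCODE annotation that is matched to RefSeq. It is a coding exon of 148 bp on the minus strand at chr7:130199758-130199905. The files give counts per row, not per exon, so they do not say whether the reads of Fgfr2 held it.
Fgfr2 IIIb exon: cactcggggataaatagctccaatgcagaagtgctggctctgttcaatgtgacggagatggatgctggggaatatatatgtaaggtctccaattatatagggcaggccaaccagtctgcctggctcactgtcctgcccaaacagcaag

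The 250 bases before the start are shown for 3 ligands that mark the range of levels: Fgf7 was the highest member, Fgf23 was low in every library, and Fgf18 had no count. They come from RefSeq (GRCm38.p6), in which 9 of the 10 members have an entry; Fgfr1 has none. Capitals mark a match to any of 6 motifs, each searched on both strands. The TATA box was searched as TATAAA, and the RUNX site of bone and cartilage factors as TGTGGT. The full cyclic AMP response element was searched as TGACGTCA, and its core, which the full element also contains, as TGACG. The site of AP-1, the Fos and Jun dimer, was searched as TGACTCA, and the GC box of Sp factors as GGGCGG. The Fgf7 window lies at chr2:126034408-126034657 on the plus strand, the Fgf23 window at chr6:127072652-127072901 on the plus strand, and the Fgf18 window at chr11:33147401-33147650 on the minus strand.
Fgf7: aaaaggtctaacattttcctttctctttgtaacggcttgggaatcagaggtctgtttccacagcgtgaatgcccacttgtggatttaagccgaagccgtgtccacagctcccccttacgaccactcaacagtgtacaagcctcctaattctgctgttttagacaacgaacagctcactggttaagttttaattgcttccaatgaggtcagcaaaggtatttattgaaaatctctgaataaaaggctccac
Fgf23: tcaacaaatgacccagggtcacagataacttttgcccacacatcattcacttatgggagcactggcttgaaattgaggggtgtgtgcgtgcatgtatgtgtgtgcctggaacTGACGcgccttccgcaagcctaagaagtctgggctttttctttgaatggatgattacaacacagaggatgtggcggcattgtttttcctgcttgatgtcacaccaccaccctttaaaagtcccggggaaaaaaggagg
Fgf18: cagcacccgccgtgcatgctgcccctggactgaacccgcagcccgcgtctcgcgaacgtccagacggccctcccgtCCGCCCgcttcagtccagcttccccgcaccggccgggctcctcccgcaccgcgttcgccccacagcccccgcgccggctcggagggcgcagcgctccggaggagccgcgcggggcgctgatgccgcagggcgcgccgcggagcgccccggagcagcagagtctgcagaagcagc
The Fgf7 window held none of the 6 motifs, the Fgf23 window held the cyclic AMP core at -138 from the start, and the Fgf18 window held a GC box at -174. GC content was 43.6% for Fgf7, 48.4% for Fgf23 and 77.2% for Fgf18, against a median of 52.4% over 32851 promoter windows of that length. The Fgf18 window also had a high ratio of observed to expected CpG of 1.02, against a median of 0.37. The window richest in GC and CpG among these 3 was therefore that of the gene with no count. Among the 9 member genes with an entry, the cyclic AMP core was found in 2 (Fgf2 and Fgf23) and the GC box in 6, while 17.8% and 32.7% of all windows hold them. The TATA box, the full cyclic AMP element, the RUNX site and the AP-1 site were in 0 of the 9, and 12.4%, 1.5%, 14.0% and 4.5% of all windows hold them. These matches describe letters in a window and no binding was measured.

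The libraries held 35195518, 37299517 and 45240005 counts in replicates 1, 2 and 3. The unit in the file names is RPKM, yet every value is a whole number, and the values were therefore taken as counts. Levels are given as counts per kilobase of transcript and per 1000000 counts (RPKM computed here), as mean ± SD over the 3 libraries. The deepest library, replicate 3, had the fewest symbols above 0, at 19560 against 20763 and 21542 in replicates 1 and 2. Among 7853 genes with a mean of 0.05 to 0.5 RPKM, where most of the low members lie, 24.7% were at 0 in replicate 3, compared with 14.5% and 9.7% in replicates 1 and 2. The cells expressed osteoblast markers, 8 of 9 above 1 RPKM, with a summed level of 11840 to 13290 RPKM. Of 8 osteocyte markers 4 were above 1 RPKM (Pdpn, Hyou1, Phex and Fam20c), with a summed level of 183.9 to 238 RPKM. Most of that sum was Pdpn at 155.7 ± 27.6 RPKM, followed by Hyou1 at 43.75 ± 1.04. Sost, which defines mature osteocytes, had 2, 0 and 0 counts. Dmp1, another defining osteocyte gene, had 77, 115 and 6 counts. Markers of other cells summed to at most 16.5 RPKM per list: 2 of 7 chondrocyte, 1 of 6 osteoclast, 1 of 6 haematopoietic, 1 of 5 endothelial, 2 of 5 adipocyte, and 0 of 5 epithelial and 0 of 5 muscle markers were above 1 RPKM. The markers of blood, fat, vessel and osteoclast cells above 1 RPKM were Lyz2 (haematopoietic) at 12.9 RPKM, Fabp4 and Adipoq (adipocyte) at 9.72 and 1.88, Itgb3 (osteoclast) at 5.34 and Kdr (endothelial) at 2.61, each with 1 row in the files. The defining markers Pecam1 (endothelial), Plin1 (adipocyte) and Acp5 (osteoclast) were at 0, and Ptprc (haematopoietic) had 0, 1 and 0 counts. All of these have several rows in the files, a class that is often at or near 0, so their counts are not read as absence. Of the markers with 1 row, 1 of 5 haematopoietic, 1 of 3 endothelial, 2 of 4 adipocyte and 1 of 4 osteoclast markers were above 1 RPKM. Called below were 1, 2, 1 and 1 of these, and the rest did not pass. Their medians were 0.152, 0.336, 1.12 and 0.632 RPKM. The part of other cells in the levels below was not tested.

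Among the counts assigned to the 10 genes, the ligand side was nearly all Fgf7 and the receptor side nearly all Fgfr2. For the receptors this holds only as the rows were counted, since Fgfr1, Fgfr3 and Fgfrl1 each have several rows, a class that is often at or near 0, and the 0 of Fgfr1 is not read as absence. Fgf7 was at 121 ± 5.33 RPKM, Fgf2 at 5.90 ± 1.62, Fgf23 at 0.267 ± 0.0816, and Fgf18 had no count. Fgfr2 was at 5.51 ± 1.47 RPKM, while Fgfrl1, Kl, Fgfr3 and Fgfr4 had means of 0.219 or less and Fgfr1 was listed at 0. The test was edgeR's quasi-likelihood F test of a level against 1 RPKM, two-sided and adjusted by Benjamini-Hochberg over the 20999 genes above 0 in any library. Of the 10 genes 3 were called above 1 RPKM (Fgf7, Fgf2 and Fgfr2), against 43.1% of all genes tested, and 1 was called below it (Kl), against 9.86%. The call of Fgf2 rests on its median transcript length of 535 bp. On its RefSeq length Fgf2 was at 0.529 RPKM and called below, which left 2 members above. In the reported test 4 further members did not pass in either direction and 2 at 0 could not be tested. The 43.1% and 9.86% are shares of genes above 0, while the counts of members and of single lists below include genes at 0. Over all 23033 genes, those at 0 included, 9061 were above 1 RPKM and 2071 below. The members' median was 0.210 RPKM, and that over all 23033 genes with a length was 0.497 RPKM. The share of members above 1 RPKM was thus not higher than the background. In bulk RNA, fewer cells that express a gene and less RNA per cell cannot be told apart.

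**Figure D1:**
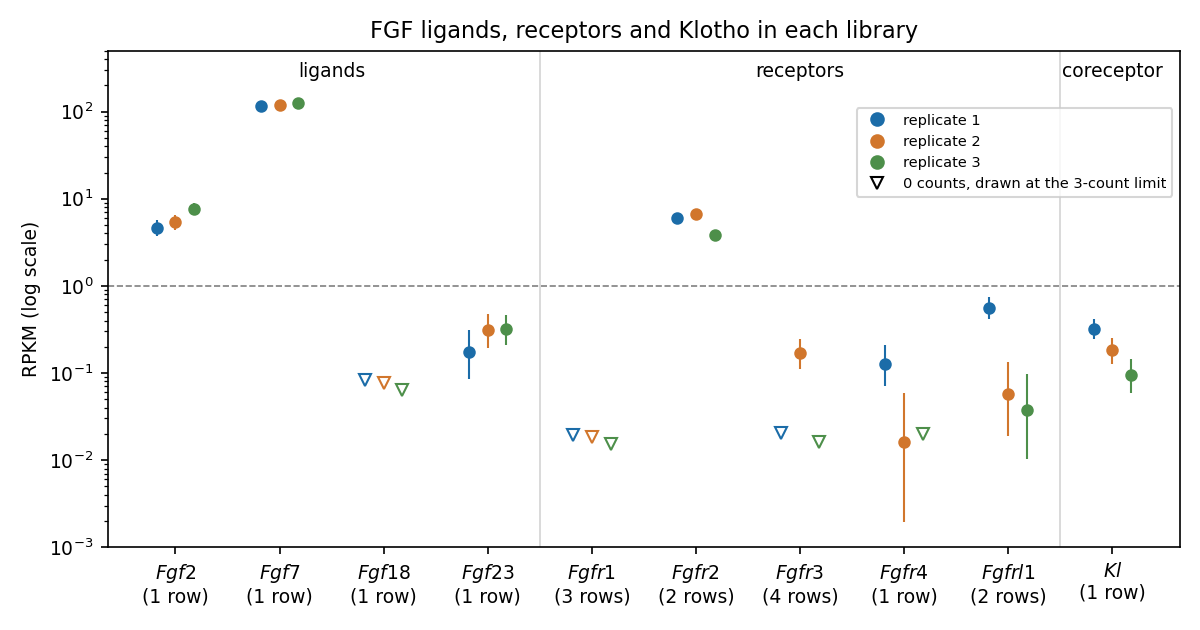
Level of each FGF ligand, FGF receptor and Klotho (RPKM, log axis) in each of the 3 PTH-treated libraries, with 1 point per library, a vertical line for the exact Poisson 95% interval and an open triangle at 3 counts where a library had 0. The dashed line is 1 RPKM. Fgf7 lies at 117 to 127 RPKM in all 3, Fgf2 and Fgfr2 lie between 3.85 and 7.73, and the other members lie below 1 RPKM or at 0. Levels are drawn on the median transcript length. On the RefSeq length Fgf2 would lie at 0.414 to 0.692 RPKM.

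Fgf7 (chr2:126034658-126091185, plus strand) had 10207, 11093 and 14281 counts in replicates 1, 2 and 3, on a transcript length of 2479.5 bp. These are 117, 120 and 127 RPKM, a narrow range with a coefficient of variation of 4.39%. Fgf7 stood at rank 634 of 23033 genes, so that 97.2% of genes were lower. Its level was above 1 RPKM with an adjusted p of 1.99e-59 (edgeR), and it was called so in every alternative setting tried. Its SD of log2 level was 0.06, and 20.5% of genes within 2-fold of its level had a smaller SD. The genes whose levels over the 3 libraries lay nearest to Fgf7, by Euclidean distance of log2(RPKM + 0.1) among 19739 other symbols with 1 row, included Ctsl at 0.056 and Mbd2 at 0.081. Ctsl encodes cathepsin L, a lysosomal protease, and Mbd2 a reader of methylated DNA. With only 3 libraries this likeness is mostly one of level.

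Fgf2, basic fibroblast growth factor, is a ligand of broad receptor range that osteoblasts store in bone matrix. It lies at chr3:37348346-37410108 on the plus strand. It had 87, 107 and 187 counts, the highest in replicate 3. The 5 basic transcripts annotated for it are mostly short, with a median of 535 bp, on which it was at 4.62, 5.36 and 7.73 RPKM and was called above 1 RPKM (edgeR adjusted p 1.19e-14). On the RefSeq transcript of 5973 bp the same counts give 0.414, 0.480 and 0.692 RPKM, a mean of 0.529 ± 0.145, and the call reversed to below 1 RPKM (edgeR adjusted p 0.0119). The length that the reads came from is not known, so the level of Fgf2 is only placed between these values. The Fgf2 locus also shares 640 exonic bases, 9.44% of its total, with Nudt6 on the opposite strand. Nudt6, a hydrolase gene also known as the Fgf2 antisense gene, had 470, 413 and 679 counts. The library kit keeps strand, but whether the counting used it is not given in the sources used here, so the reads of these neighbours may not be fully separated.

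**Figure D2:**
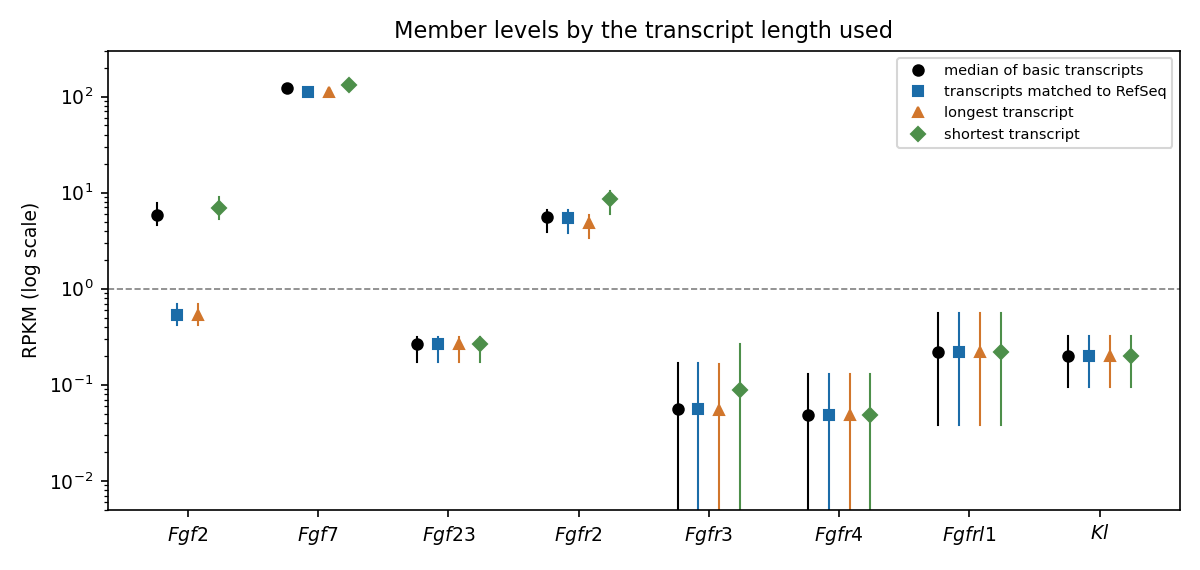
Mean level (RPKM, log axis) of each member with counts, computed with the median, shortest, longest and RefSeq transcript length, each as 1 point with a vertical line from the lowest to the highest library. Fgf2 moves from 6.84 to 0.529 RPKM across the dashed level of 1 RPKM, while Fgf7 stays above it on every length.

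Fgf23 (chr6:127072902-127081408, plus strand), the phosphate-lowering hormone, had 11, 21 and 26 counts on 1814 bp. These are 0.172 RPKM (exact Poisson 95% interval 0.0860 to 0.308), 0.310 (0.192 to 0.474) and 0.317 (0.207 to 0.464). The intervals, which cover counting error only, overlap between all 3 libraries. The mean of 0.267 RPKM did not pass the test against 1 RPKM (edgeR adjusted p 0.104), although limma on log values called it below (adjusted p 0.00411); 40.2% of genes were lower. Fgf18, which acts on cartilage and bone cells in skeletal growth, lies at chr11:33117430-33147400 on the minus strand and had 0 counts in each library on 1038.5 bp. A floor of 3 counts would be 0.0821, 0.0774 and 0.0638 RPKM in replicates 1, 2 and 3. The upper ends of the exact Poisson 95% intervals were 0.101, 0.0952 and 0.0785 RPKM. Against the floor of 3 counts per library, Fgf7 was 1425-, 1549- and 1994-fold higher. Fgf18 has 1 row in the files, unlike some of the receptors described below.

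The low members were also set beside 10 markers of epithelium and muscle, all with 1 row in the files. These come from the marker lists of other cells that had no gene above 1 RPKM, so their low level follows from that choice. Each of the remaining lists of other cells held a marker above 1 RPKM, the highest being Lyz2 at 12.9 RPKM. Those markers had means from 0.0124 RPKM (Krt18, a keratin) to 0.344 (Cdh1, the epithelial cadherin), with a median of 0.133, and 0 of the 10 were above 1 RPKM by edgeR, limma or DESeq2, also at an unadjusted p under 0.05. The highest value among them was 0.424, 0.422 and 0.444 RPKM in replicates 1, 2 and 3. It belonged to Cdh1 in replicates 1 and 2 and to Epcam in replicate 3. Of these 10 markers 8 were below Fgf23, 7 below Kl, 7 below Fgfrl1, 1 below Fgfr4 and 1 below Fgfr3. Fgf23, Kl, Fgfr3 and Fgfr4 thus did not exceed the highest of these markers in any library, and Fgfrl1 exceeded it in replicate 1 only.

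Among receptors, Fgfr2 (chr7:130162451-133123350, minus strand) carried most of the counts. The files list it in 2 rows, the first with 800, 930 and 656 counts and the second with 0, 6 and 1, and the files do not say which transcript a row stands for. Their sums were 6.02 RPKM (95% interval 5.61 to 6.46), 6.65 (6.23 to 7.09) and 3.85 (3.56 to 4.16). Replicate 3 was the lowest and its interval did not overlap the others. Its log2 level in replicate 3 was -0.71 relative to the mean of replicates 1 and 2, and the SD of 0.41 was larger than in 89.8% of genes within 2-fold of its level. The low value of replicate 3 was not shared by most genes of that range, since 29.3% of 5385 genes at 2 to 20 RPKM had their lowest value there. Fgfr2 was above 1 RPKM (edgeR adjusted p 5.72e-24), with 73.2% of genes lower. Its GENCODE span, given above, runs past its RefSeq promoter window at chr7:130266809-130267058. Of its exonic bases 314 (3.04%) are shared with Ctbp2 on the same strand. In the GENCODE transcripts matched to RefSeq, 490 bases (14.7%) of the IIIc transcript and 1478 bases (34.3%) of the IIIb transcript occur in that transcript only. The genes nearest to Fgfr2 over the libraries were Sugp1, a splicing protein gene, at a distance of 0.090, Gm7368 at 0.124 and Tmem181c-ps at 0.144, among 19740 symbols with 1 row.

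Fgfr1, the main FGF receptor of many mesenchymal cells, has 3 rows, and each was 0 in each library. It lies at chr8:25513654-25575718 on the plus strand, and 3 counts would be 0.0194, 0.0183 and 0.0151 RPKM. Its 0 is not read as absence. GENCODE holds 3 Fgfr1 transcripts matched to RefSeq, of which 2 have no base of their own and the other has 967 (19.2%). Fgfr3, which restrains growth-plate cartilage, lies at chr5:33721674-33737068 on the plus strand. It has 4 rows with 0, 26 and 0 counts in all, and the 26 of replicate 2 stood in 1 row. These are 0, 0.168 (0.110 to 0.246) and 0 RPKM, so the gene was seen in a single library. The 5 Fgfr3 transcripts matched to RefSeq have 0 to 151 bases of their own, and 998 exonic bases (13.9%) are shared with G630022F23Rik on the opposite strand. Fgfr4 (chr13:55152640-55168759, plus strand), the receptor known from liver and developing muscle, has 1 row with 15, 2 and 0 counts, or 0.128, 0.0161 and 0 RPKM. Neither Fgfr3 (edgeR adjusted p 0.0893) nor Fgfr4 (0.114) passed the test against 1 RPKM, though limma called both below.

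Fgfrl1 encodes a receptor that binds FGFs but has no kinase domain, and lies at chr5:108692382-108706924 on the plus strand. Its first row was 0 in every library and its second held 46, 5 and 4 counts. These are 0.562 RPKM (0.412 to 0.750), 0.0577 (0.0187 to 0.135) and 0.0380 (0.0104 to 0.0974). Replicate 1 was high, with an interval apart from those of the other replicates, which overlapped each other. The mean of 0.219 ± 0.297 did not pass (edgeR adjusted p 0.088), but was called below 1 RPKM with limma (adjusted p 0.00419) and with the mean over rows (edgeR adjusted p 0.0313). Replicate 1 decides its size: the log2 level was -2.19 with it and -4.39 without it. The 2 transcripts matched to RefSeq have 262 bases (11.3%) and 273 bases (11.7%) of their own.

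Kl (chr5:150952607-150993817, plus strand) has 1 row of 5118 bp with 58, 35 and 22 counts. These are 0.322 RPKM (0.244 to 0.416), 0.183 (0.128 to 0.255) and 0.0950 (0.0596 to 0.144), highest in replicate 1 and lowest in replicate 3. The mean of 0.200 ± 0.114 was called below 1 RPKM (edgeR adjusted p 0.00739), the only member called below, and 34.9% of genes were lower. Fgfr3 and Fgfr4 had lower means, at 0.0560 and 0.0481 RPKM, and did not pass. The call thus does not mark Kl as the lowest member. For Kl it was lost with DESeq2 (adjusted p 0.528) and without replicate 1 (edgeR adjusted p 0.0745) or replicate 2 (0.0604). In genes of this level low values fell in replicate 3 more often than in the others: of the 7853 genes between 0.05 and 0.5 RPKM, 39.5% were lowest in replicate 3. Klb, encoding beta-Klotho, the coreceptor for the hormones Fgf21 and Fgf15, was at 0.160, 0.386 and 0.181 RPKM and was also called below 1 RPKM (edgeR adjusted p 0.0249).

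Summed over members, ligands were at 122, 126 and 135 RPKM and the receptors, with Klotho left out, at 6.71, 6.89 and 3.89. The ligand sum was 18.1-, 18.2- and 34.8-fold the receptor sum in replicates 1, 2 and 3. Ligands were higher in every library, and the larger fold of replicate 3 went with its lower Fgfr2. Fgf7 was 96.1%, 95.5% and 94.1% of the ligand sum, and Fgfr2 was 89.7%, 96.5% and 99.0% of the receptor sum. The receptor sum holds 4 members with several rows in the files and the ligand sum holds none, so the ratio is not free of that difference. The leading pair, Fgf7 and Fgfr2, stood in ratios of 19.41, 18.03 and 33.08.

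The distance of each member with a count from Fgf7 was taken within libraries on log2(RPKM + 0.1). Fgf7 is the reference because it is the highest member, so the direction is fixed by that choice, and with limma 96.6% of all genes tested were lower than Fgf7; only the sizes are described. Fgf2 differed from Fgf7 by -4.37 ± 0.31 on the log2 scale, or by -7.51 on RefSeq lengths, and Fgfr2 differed by -4.47 ± 0.47. Kl differed by -8.73 ± 0.62 and Fgf23 by -8.40 ± 0.30, while Fgfrl1, Fgfr3 and Fgfr4 differed by -8.96 to -9.78 with the largest SD of 1.30 for Fgfrl1. In linear terms Fgf7 was 679-, 386- and 402-fold higher than Fgf23 and 363-, 654- and 1340-fold higher than Kl.

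In descending order the 8 members with counts were Fgf7, Fgf2, Fgfr2, Fgf23, Fgfrl1, Kl, Fgfr3 and Fgfr4. Of the 7 neighbouring pairs 3 stood in the same order in every library. Fgf7 exceeded Fgf2 by 4.63, 4.46 and 4.03 on the log2 scale, Fgfr2 exceeded Fgf23 by 4.49, 4.04 and 3.24, and Kl exceeded Fgfr3 by 2.08, 0.08 and 0.96. An exact two-sided sign-flip permutation test gives p = 0.25 for each of these 3 pairs, the smallest that 3 libraries allow (0.583 after adjustment over the 7 pairs). Fgf2 and Fgfr2 differed by -0.38, -0.31 and 0.99, with Fgfr2 higher in 2 libraries and Fgf2 in the third, so their order does not hold beyond the spread. The same was true of Fgf23 with Fgfrl1 (-1.28, 1.38 and 1.59), of Fgfrl1 with Kl (0.65, -0.85 and -0.50) and of Fgfr3 with Fgfr4 (-1.19, 1.21 and 0.00). The gap below Fgf7, at 4.37 ± 0.31, and the gap below Fgfr2, at 3.93 ± 0.63, were several times their SD, while the gap between Kl and Fgfr3, at 1.04 ± 1.00, was about as large as its SD. On RefSeq lengths Fgf2, at 0.529 RPKM, stands below Fgfr2, at 5.45 RPKM, and not above it.

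The number of rows a symbol has went with its level over all genes, which touches Fgfr1, Fgfr2, Fgfr3 and Fgfrl1. Genes with 1 row (19740) had a median of 0.694 RPKM, 5.0% were at 0 in every library and 43.1% were called above 1 RPKM. With 2 rows (2248 genes) the median was 0.0798, with 29.8% at 0 and 18.6% above. With 3 rows (657 genes) it was 0.0753, with 30.1% at 0 and 14.9% above, and with 4 or more (388 genes) it was 0.0158, with 44.1% at 0 and 11.6% above. Other genes of the pathway with several rows were also at 0, among them Hras1, which encodes a Ras protein, with 3 rows, and Myc with 4. The part of the row split in the low values of Fgfr1, Fgfr3 and Fgfrl1 was not tested.

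**Figure D3:**
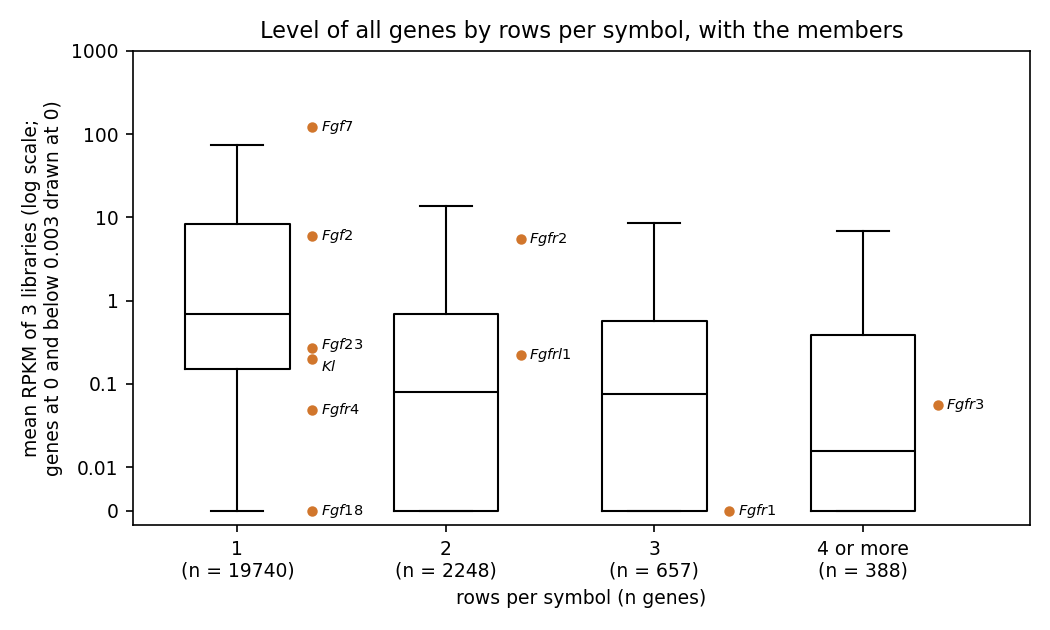
Mean level over the 3 libraries (RPKM, log axis) of all genes, by the number of rows a symbol has in the files; boxes give the median and quartiles, whiskers the 5th and 95th percentiles, and orange points the 10 members. The median falls from 0.694 RPKM with 1 row to 0.0158 with 4 or more, and Fgfr2 lies above the box of its 2-row class.

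Of 14 further FGF ligand genes, 2 were called above 1 RPKM, beside 43.1% of all genes tested. Of the others 10 did not pass and 2 were at 0, and the median of the 14 was 0.160 RPKM. By edgeR 0 were called below (1 at an unadjusted p under 0.05), against 8 by limma and 0 by DESeq2, and DESeq2 called 0 above. Fgf1, acidic FGF, was at 1.63, 2.83 and 2.34 RPKM (edgeR adjusted p 0.000327) on a median length of 974 bp, but on its RefSeq length of 3981 bp it was at 0.555 and the call reversed to below (0.0481). Fgf10, which like Fgf7 binds the IIIb form of Fgfr2, was at 1.52 ± 0.218 RPKM (edgeR adjusted p 0.00281). Fgf21, a metabolic hormone, had 12, 35 and 132 counts, or 0.358, 0.987 and 3.07 RPKM, and did not pass (0.218), with replicate 3 far above the others. Over all 18 secreted ligands, 15 of them above 0, Fgf7 made up 91.5%, 90.0% and 89.0% of the summed RPKM, and 94.8 ± 0.413% on RefSeq lengths. The 4 intracellular FGF homologous factors, which are not secreted and act on sodium channels, had a median of 0.0826 RPKM; 0 were above 1 RPKM by edgeR, limma or DESeq2, also at an unadjusted p under 0.05. The 3 highest of them were Fgf11 at 0.138, Fgf13 at 0.117 and Fgf14 at 0.0478 RPKM.

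Genes of the cell surface that help or hold FGFs ranged from low to among the highest levels of the pathway. Of 10 coreceptors and binding proteins 5 were above 1 RPKM, a share near the 43.1% of all genes tested, and 2 below (Klb and Flrt1), with a median of 1.64 RPKM. The highest were Nptn, a neuroplastin that can bind FGF receptors, at 94.1 ± 16.7 RPKM, Flrt2, a membrane protein with leucine-rich repeats, at 41.2 ± 8.72, and the cadherin Cdh2 at 14.2 ± 0.953. Fgfbp3, which encodes a carrier that releases FGFs from matrix, was at 4.19 ± 1.16 RPKM. Of 13 heparan sulfate proteoglycan core genes 9 were above 1 RPKM, beside 43.1% of all genes tested. Of the others 3 did not pass and 1 (Gpc6, 2 rows) was at 0, and the list median was 8.19 RPKM. The syndecans led, with Sdc4 at 989 ± 145, Sdc1 at 351 ± 30.4 and Sdc2 at 169 ± 16.8 RPKM, and the list summed to 1463 to 1758 RPKM per library. Each of these 3 syndecans was higher than Fgf7 in mean level per length.

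The intracellular cascade was broadly expressed. Beside 43.1% of all genes tested, 22 of 25 adaptor and kinase genes were above 1 RPKM (19 with DESeq2), with a median of 10.4 RPKM. Of the 18 with 1 row 17 were above it. The receptor adaptor Frs2 was at 40.3, 42.0 and 59.2 RPKM, highest in replicate 3. The exceptions were Ptpn11, a phosphatase gene with 2 rows, which was below 1 RPKM at 0.242; the adaptor Frs3, which did not pass at 0.454; and Hras1 at 0. These genes serve many receptors, so their levels are not particular to FGF signalling.

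Beside 43.1% of all genes tested, 12 of 19 measured feedback and target genes were above 1 RPKM and 1 was below, with a median of 1.99 RPKM. DESeq2 called 7 of them above and limma called 5 below. Ccnd1, the cyclin D1 gene, was at 154 ± 8.97 RPKM, Spred1, an inhibitor of Ras signalling, at 63.5 ± 3.36, and Dusp6, the ERK phosphatase gene, at 14.5 ± 2.70. The Sprouty genes were lower, with Spry1 at 7.40 ± 0.577, Spry2 at 1.95 ± 0.473 and Spry4 at 1.99 ± 0.0838 RPKM, all called above 1 RPKM (edgeR, largest adjusted p 0.000134). The ETS factor genes differed among themselves: Etv5 was at 5.94 ± 1.25 RPKM and above the level, while Etv4 at 0.144 and Etv1 at 0.0684 did not pass. Spred3 was the gene called below, at 0.484 RPKM (edgeR adjusted p 0.0376).

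Genes that regulate or process Fgf23 covered a wide range of levels. Of 14 genes of its regulation and processing 7 were above 1 RPKM, a share near the 43.1% of all genes tested, 1 was below and 1 at 0, with a median of 1.53 RPKM. DESeq2 called 4 of them above. Hif1a, the oxygen-sensing factor gene, was at 177 ± 21.3 RPKM, Ank, which exports pyrophosphate, at 11.5 ± 1.36, and Phex, whose loss raises Fgf23, at 9.05 ± 0.940. Galnt3, which glycosylates Fgf23 and protects it from cleavage, was at 5.34 ± 1.09, and the secretory kinase gene Fam20c at 1.78 ± 0.239 RPKM. The protease genes of this list with 2 rows were low, Pcsk5 below 1 RPKM at 0.302 and Furin at 0. Dmp1, whose loss raises Fgf23, was at 0.792, 1.12 and 0.0480 RPKM and did not pass, with replicate 3 lowest. Of 10 phosphate and vitamin D genes 5 were above 1 RPKM, a share near the 43.1% of all genes tested, and 5 did not pass. The widely used phosphate carriers were above, with Slc20a1 at 21.0 ± 0.537, Xpr1 at 13.3 ± 1.39 and Slc20a2 at 9.12 ± 0.539 RPKM. The renal phosphate carriers Slc34a1 and Slc34a3, their intestinal and lung relative Slc34a2, and the vitamin D hydroxylases Cyp24a1 and Cyp27b1 were at 0.057 to 0.177 RPKM and did not pass with edgeR.

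**Figure D4:**
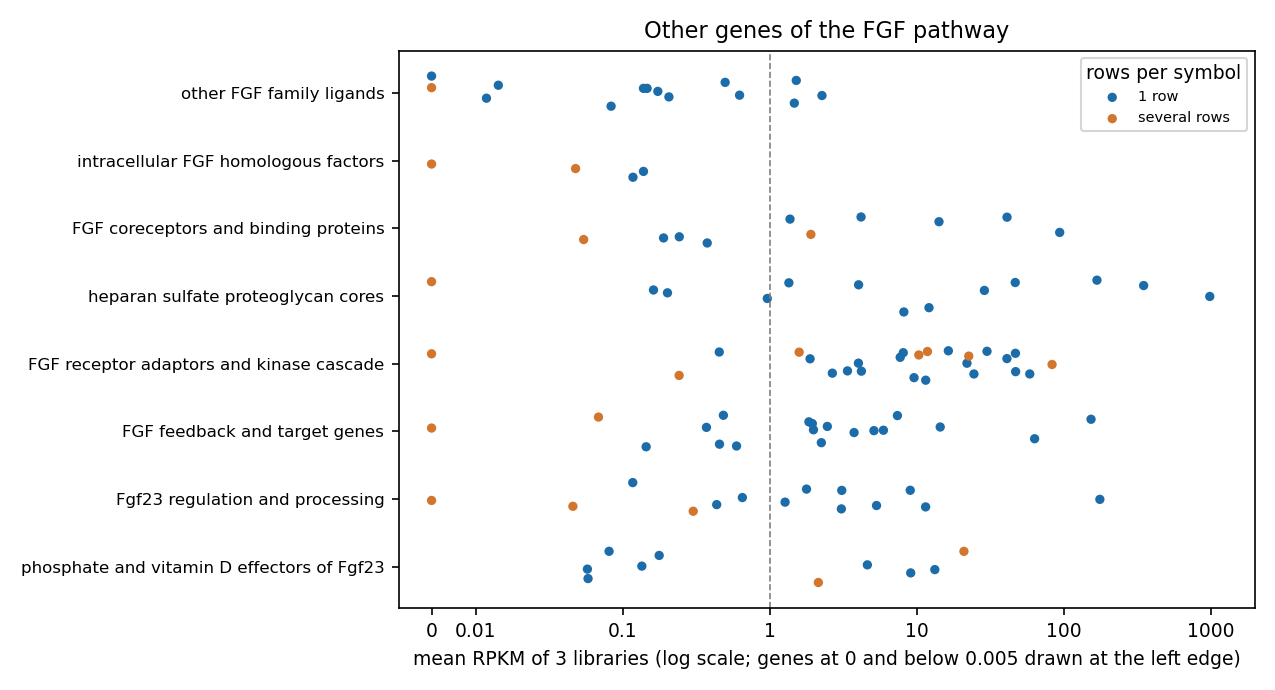
Mean level over the 3 libraries (RPKM, log axis) of each gene in 8 lists of the FGF pathway, with 1 point per gene, blue for symbols with 1 row and orange for several. Most adaptor and cascade genes (median 10.4 RPKM) lie to the right of the dashed line at 1 RPKM, and most of the other ligands (median 0.160) lie to its left.

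Over the 8 lists together 102 of 109 genes were above 0 and tested; 62 of these (60.8%) were above 1 RPKM and 5 (4.9%) below, beside 43.1% and 9.86% of all genes tested. The 5 below were Klb, Flrt1, Ptpn11, Spred3 and Pcsk5. On RefSeq lengths 2 of the 109 changed their call, Fgf1 as given above and Akt1, a kinase gene, which was at 1.59 RPKM and no longer passed at 1.19.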

How the data were processed

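RNA-seq was done on total RNA of 3 IDG-SW3 cultures after ribosomal RNA depletion, with a kit that keeps strand, per the labels' protocols. The deposited values, named RPKM by the authors, were whole numbers summing to 35195518, 37299517 and 45240005 over 30795 rows per library, and were used as raw read counts per transcript row; every RPKM and interval rests on that reading. TopHat and build mm9 were used, per the submitters' processing notes; how rows were counted, on which annotation, and with what rule for strand and multiply matched reads is not given in the sources used here.

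Rows were summed per symbol. RPKM was computed from the counts of all rows and the median length over basic transcripts of GENCODE M21 (GRCm38), with 20840 symbols matched directly and 2193 through synonyms, while 2377 were left out. The matched symbols held 96.4%, 96.4% and 96.3% of the counts. Gene positions, transcripts and the Fgfr2 exon are from GENCODE and the promoter windows from RefSeq, both on GRCm38, not the authors' build. Transcripts and lengths called RefSeq are those of GENCODE transcripts matched to a RefSeq entry. Levels were tested two-sided against 1 RPKM with edgeR 4.0.16 (R 4.3.3, quasi-likelihood F test of the single coefficient, offset at 1 RPKM). Differences from Fgf7 were tested with limma 3.58.1 (pseudocount 0.1 RPKM). Each ran over all genes above 0, adjusted by Benjamini-Hochberg, threshold 0.05. The scripts were checked on simulated counts with the same fixed dispersion for all genes. That check does not speak for genes whose counts vary more than that. The p-values of these tests rest on the spread among the 3 cultures, shared over all genes and not taken from each gene alone. They measure no bias that all libraries share. Neighbouring levels were compared by exact sign-flip permutation. Folds on the log2(RPKM + 0.1) scale understate the change of low genes. Intervals are exact Poisson at 95% and cover counting error only, because reads were not tagged by molecule. Alternatives were DESeq2 1.42.0, limma, other lengths, row rules, filters and scaling, and leaving out each library. The RefSeq length and the restriction to symbols with 1 row were chosen after seeing the data.

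The named genes were all 10 members, the 3 highest genes of each list, and the 3 genes nearest to the highest ligand and to the highest receptor. Of the marker lists defining genes are named, and other genes named were chosen after their values were seen. Some genes that this rule names, and a sequence, are not reported here. Members and lists were chosen with earlier results of these data known, so their levels are a description.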

Additional observations from a re-analysis of the deposited data

How the results depend on the processing

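The calls above 1 RPKM were the steadier ones: Fgf7 was above in all 13 alternatives, Fgfr2 in the 12 that keep it, and 2 to 3 members were above in each. Fgf2 reversed, to a log2 level of -0.92, with the longest and with the RefSeq transcript, by the construction of those settings. Calls below 1 RPKM depended on the setting. Members below, 1 in the reported test (Kl), were 3 with the mean over rows, 2 with the longest transcript, 2 with RefSeq lengths, 5 with limma and 0 with DESeq2 (also 0 at an unadjusted p under 0.05), and 0 to 1 when a library was left out; Kl lost its call without replicate 1 and without replicate 2. Pathway genes below, 5 as reported, were 8 with the mean over rows, 10 with the longest transcript, 33 with limma, 0 with DESeq2 (2 at an unadjusted p under 0.05) and 11 with a summed count of at least 30. They were 3 to 6 when a library was left out, with 3 without replicate 1 and 3 without replicate 2. Pathway genes above were 46 with DESeq2 and 62 as reported. Neighbouring members in the same order in every library, 3 as reported, were 5 with the mean over rows and 3 to 5 when a library was left out, with 5 without replicate 1. Over all genes 2071 were below 1 RPKM as reported, 9852 with limma, 268 with DESeq2, and 552, 371 and 1615 without replicates 1, 2 and 3. The median log2 level of all genes moved from -0.44 to -0.61 with the longest transcripts, -0.14 with the shortest, -0.59 with the mean over rows, -0.13 over symbols with 1 row, 1.08 over genes with a summed count of at least 30, and -0.24, -0.12 and -0.29 without replicates 1, 2 and 3. The cause of the other differences was not tested. No paired analysis was possible because the 3 libraries form a single group. At these depths the members other than Fgf7, Fgf2 and Fgfr2 rest on few counts, and a gene at 0 is not shown to be absent.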
